A study of Arabidopsis thaliana with 8 samples.

Results

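Methionine-derived (aliphatic) glucosinolates are sulfur-rich defence compounds of the cabbage family. In Arabidopsis, methionine is first lengthened by deamination and a cycle of condensation, isomerisation and oxidation. The lengthened amino acid is then turned into the glucosinolate core by cytochromes P450, conjugation with glutathione, and the addition of glucose and sulfate. Aliphatic glucosinolates are made in roots as well as in shoots, and they draw on the methionine from which nicotianamine, a metal chelator of iron transport, is also made.

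The genes described here are 10 probe sets of that pathway, of 22810 on the array. They were chosen by pathway membership with earlier results of the same 8 arrays in view, that is with the signals of all 4 groups known, so their values are given below as a description. No p-value of a single one of them is printed, and counts of them past a threshold are set beside the share of all tested probe sets and support nothing further. All 10 lay above the filter on low signal that left 15922 probe sets tested. The platform annotation used here names 4 of them (BCAT4, GSTU20, AT2G31790 and UGT74B1). The other 6 carry the names and loci given when the genes were chosen: MAM3 (AT5G23020, IMS2 in the RefSeq table), IPMI1 (AT3G58990), IPMI2 (AT2G43100), BAT5 (AT4G12030), CYP83A1 (AT4G13770) and IPMDH, given without a locus. The probe set of IPMDH has an identifier whose suffix marks probes that match more than one transcript, so related isopropylmalate dehydrogenase genes may share its signal.

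The study asked how a mutation in POPEYE (PYE), which encodes a transcriptional regulator of the basic helix-loop-helix class, changes the transcripts of whole roots with and without iron. All plants were Arabidopsis thaliana of the Columbia ecotype, started on standard medium with iron and given an age of 7 days after germination. The 4 groups, each with 2 arrays, were pye-1 without iron, pye-1 with iron, wild type (WT) without iron and WT with iron. Before harvest, roots had spent 24 h either on iron-free medium holding 0.3 mM ferrozine, which chelates ferrous iron (-Fe), or on medium with Fe(III)-EDTA (+Fe). Each array is a biological replicate of about 320 pooled roots per the labels' protocols, which do not describe the molecular nature of the pye-1 allele.

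The deposited values are MAS5 signals, 1 number per probe set and array on a linear scale. Array medians lay between 91.5 and 97.6 signal units. On each array a control level was read as the brightest of 27 bacterial controls treated here as unspiked. It lay between 11.7 and 23.7, and none of the 10 probe sets was at or under it on any array. The lowest signal among them was 47.9. PYE read 25.03 and 28.2 on the pye-1 -Fe arrays and 138 and 149 on the WT -Fe arrays, and it read 19.1 and 15.0 on the pye-1 +Fe arrays and 56.7 and 65.1 on the WT +Fe arrays. PYE differed between genotypes on -Fe medium by a log2 value of -2.44, with the lower signal in pye-1 (limma adjusted p = 0.00311). With an array left out, this difference ran from -2.52 to -2.35 and did not pass in every such fit. On +Fe medium PYE was near the control level in pye-1. Its difference from WT was -1.84 and did not pass (adjusted p = 0.0630, and 0.0171 with the replicate number as a block). Of 9 root markers listed, 2 had a named probe set (EXPA7 and EXPA18, expansins of root hair cells), and they read from 286 to 709 on the 8 arrays. Signal for 25S ribosomal RNA was 242 to 565 on arrays of replicate 1 and 1691 to 4047 on those of replicate 2, so differences are also given within each replicate number, where a group has 1 array and there is no test. With 2 arrays in a group, array number limits precision throughout. In whole roots fewer cells that express a gene and less RNA per cell cannot be told apart.

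**Figure D1:**
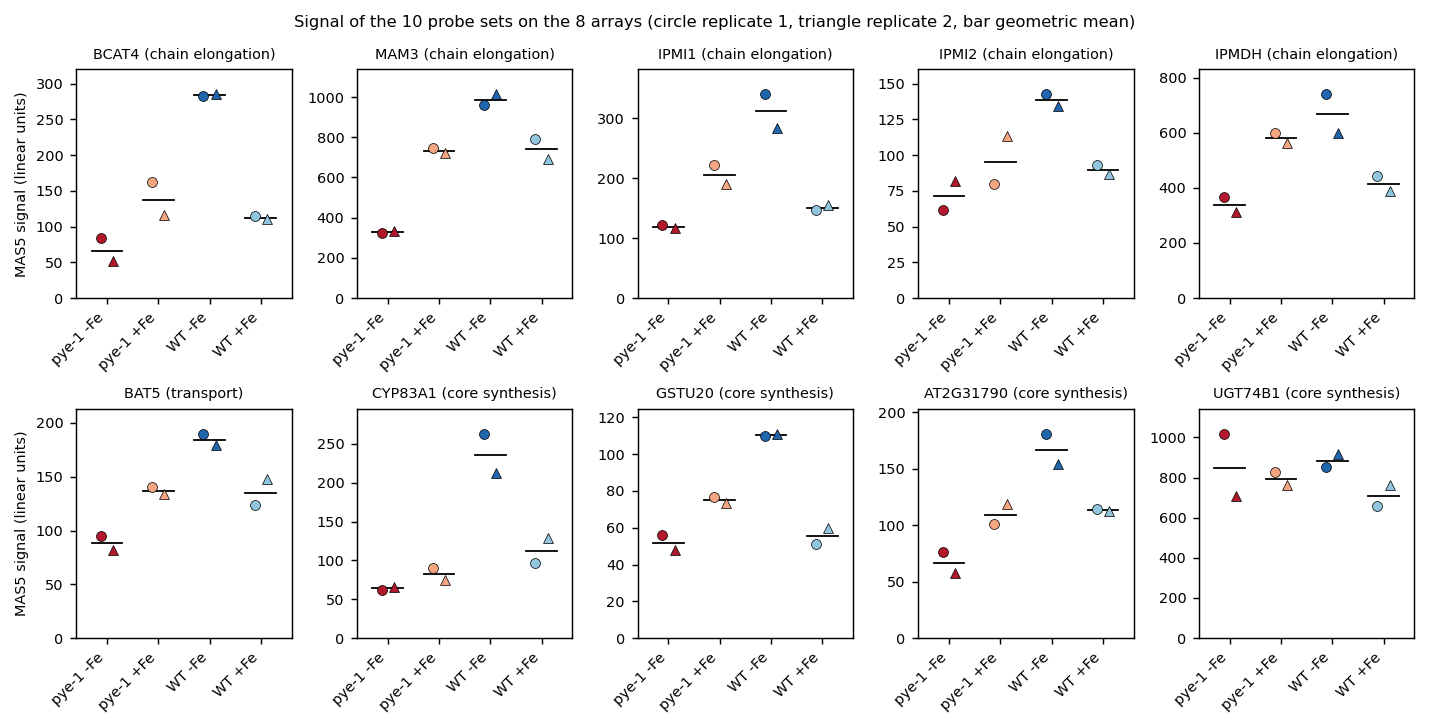
MAS5 signal (linear units, axis from 0) of each of the 10 probe sets on the 8 arrays, by group. Circles are replicate 1, triangles replicate 2 and bars the geometric mean of the 2 arrays. Except for UGT74B1, each gene had both WT -Fe arrays above the other 6 arrays, and 7 of the 10 had both pye-1 -Fe arrays below the other 6.

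All 8 arrays gave one order for most of the genes. In 9 of 10, both WT -Fe arrays exceeded the other 6, as in 3.66% of all tested probe sets. In 7 of 10, both pye-1 -Fe arrays were under the other 6, as in 6.07%. In 9 of 10, signal was lower without iron in pye-1 and higher without iron in WT in each replicate number, as in 8.84%.

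Among the chain-elongation genes, BCAT4 had the widest range between group means. BCAT4, the aminotransferase that starts the cycle by deaminating methionine, read 84.0 and 52.6 signal units in pye-1 -Fe and 162 and 116 in pye-1 +Fe, against 282 and 286 in WT -Fe and 115 and 111 in WT +Fe. Its 2 WT -Fe arrays stood above the other 6 and its 2 pye-1 -Fe arrays below them. On the log2 scale BCAT4 differed by -1.05 ± 0.24 between -Fe and +Fe in pye-1 and by 1.34 ± 0.24 in WT (± standard error of the fit over all 8 arrays). Without iron it was 4.28-fold lower in pye-1 than in WT, a log2 difference of -2.10 ± 0.24, with -1.75 in replicate 1 and -2.44 in replicate 2. This ranked 3 from the lowest among the 15922 tested probe sets.

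MAM3, a methylthioalkylmalate synthase that condenses the 2-oxo acid with acetyl-CoA, read 324 and 335 in pye-1 -Fe and 747 and 720.0 in pye-1 +Fe, against 959.7 and 1016 in WT -Fe and 791 and 691 in WT +Fe. Of all 10 genes it had the largest difference between -Fe and +Fe in pye-1, -1.15 ± 0.12, while the difference in WT was smaller, 0.42 ± 0.12. With iron the 2 genotypes overlapped, at a log2 difference of -0.01 with a 95% interval from -0.29 to 0.26. Without iron MAM3 was 2.99-fold lower in pye-1 (log2 difference -1.58 ± 0.12), by nearly the same amount in replicate 1 (-1.57) and replicate 2 (-1.60).

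The isomerase and dehydrogenase steps followed the same order of groups. IPMI1, an isopropylmalate isomerase subunit that rearranges the condensation product, read 122 and 116 in pye-1 -Fe and 222 and 191 in pye-1 +Fe, against 341 and 284 in WT -Fe and 147 and 155 in WT +Fe. IPMI1 differed by -0.79 ± 0.16 between media in pye-1 and by 1.05 ± 0.16 in WT, and all 4 groups were separate. IPMI2, like IPMI1, is a small subunit of this isomerase, and the large subunit had no named probe set. IPMI2 read 61.9 and 81.9 in pye-1 -Fe and 79.9 and 113 in pye-1 +Fe. In WT it read 143 and 134 on -Fe medium and 93.1 and 86.7 on +Fe medium. Its pye-1 groups overlapped, and its difference between media there was -0.42 ± 0.23, against 0.62 ± 0.23 in WT. IPMDH, the dehydrogenase that ends a turn of the cycle, read 366 and 313 in pye-1 -Fe and 599 and 562 in pye-1 +Fe, against 741 and 600.4 in WT -Fe and 442 and 389 in WT +Fe. Without iron the differences between pye-1 and WT were -1.38 ± 0.16 for IPMI1, -0.96 ± 0.23 for IPMI2 and -0.98 ± 0.15 for IPMDH.

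BAT5, a transporter of the plastid envelope that moves 2-oxo acids of the cycle, read 94.5 and 82.3 in pye-1 -Fe and 140.3 and 134 in pye-1 +Fe, against 189.9 and 179 in WT -Fe and 124 and 148 in WT +Fe. The 2 +Fe groups overlapped, and the -Fe groups lay below and above them. BAT5 differed between media by -0.64 ± 0.17 in pye-1 and by 0.45 ± 0.17 in WT, and without iron it was 2.09-fold lower in pye-1 than in WT.

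Among the genes of core synthesis, CYP83A1 differed most between genotypes. CYP83A1, the cytochrome P450 that oxidises aldoximes of the aliphatic branch, read 61.7 and 66.1 in pye-1 -Fe and 89.8 and 75.0 in pye-1 +Fe, against 263 and 212 in WT -Fe and 97.1 and 129 in WT +Fe. Without iron it was 3.70-fold lower in pye-1, a log2 difference of -1.89 ± 0.21 that ranked 8 from the lowest. CYP83A1 had the smallest difference between media in pye-1 among the 9 genes that were lower there without iron (-0.36 ± 0.21) and one of the larger ones in WT (1.08 ± 0.21). In WT that difference was 1.44 in replicate 1 and 0.71 in replicate 2.

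GSTU20, a tau-class glutathione S-transferase placed at the conjugation step, read 55.8 and 47.9 in pye-1 -Fe and 76.9 and 73.6 in pye-1 +Fe, against 109.9 and 111 in WT -Fe and 51.1 and 60.0 in WT +Fe. Its WT -Fe arrays were 2.00-fold above WT +Fe, and its lowest WT +Fe array lay within the pye-1 -Fe range. AT2G31790, the glucosyltransferase also known as UGT74C1, read 76.2 and 57.8 in pye-1 -Fe and 101 and 118 in pye-1 +Fe, against 181 and 154 in WT -Fe and 115 and 112 in WT +Fe. The +Fe groups of AT2G31790 overlapped, while its pye-1 -Fe arrays were the lowest of the 8 and its WT -Fe arrays the highest. Without iron the log2 differences between pye-1 and WT were -1.10 ± 0.21 for GSTU20 and -1.33 ± 0.20 for AT2G31790.

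UGT74B1 did not share this order. This glucosyltransferase acts in the synthesis of glucosinolates of several classes. It read 1018 and 707 in pye-1 -Fe and 826 and 765 in pye-1 +Fe. In WT it read 850.1 and 918 on -Fe medium and 658 and 765 on +Fe medium. Replicate 1 of pye-1 -Fe was the highest of the 8 arrays and replicate 2 lay above only 1 of them, while WT -Fe stood above WT +Fe without overlap. Its log2 differences were 0.09 ± 0.17 between media in pye-1, 0.32 ± 0.17 between media in WT, and -0.06 ± 0.17 between pye-1 and WT without iron, with a 95% interval from -0.44 to 0.32 for the last.

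**Figure D2:**
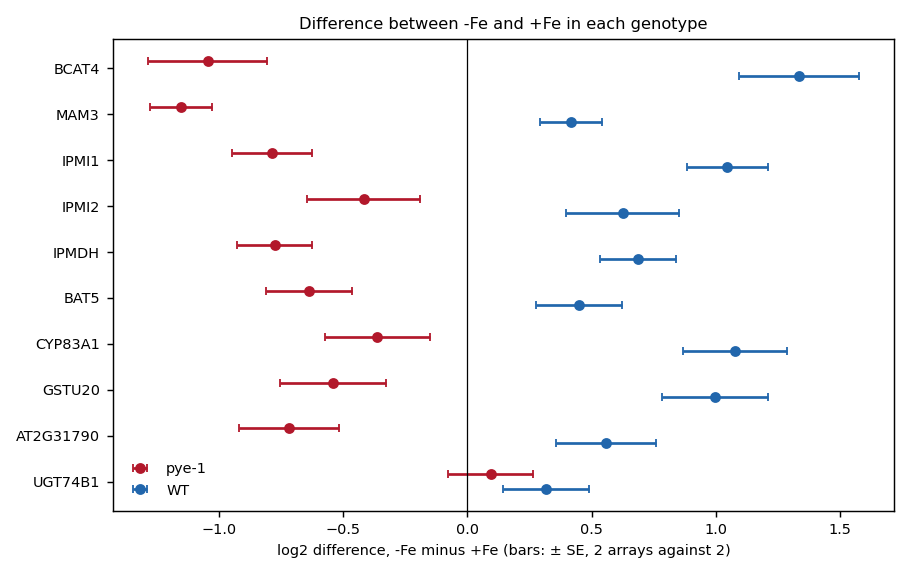
Log2 difference between -Fe and +Fe (horizontal axis) for each gene, in pye-1 (red) and WT (blue), with bars of ± 1 standard error from the fit, 2 arrays against 2. For 9 of the 10 genes the pye-1 value was below 0 and the WT value above 0, and UGT74B1 had 0.09 and 0.32.

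In pye-1, the comparison of roots without and with iron gave a median log2 difference of -0.68 over the 10 genes, from -1.15 (MAM3) to 0.09 (UGT74B1), where the median over all tested probe sets was -0.04. MAM3 and IPMDH were past the threshold of adjusted p under 0.05 in the direction of lower signal, 2 of 10, where 0.201% of all tested probe sets were (1.05% in either direction). With the replicate number as a block the count was 4, with BCAT4 and IPMI1 added, and it was 1 of 10 without any 1 of 5 arrays (pye-1 -Fe replicate 2, either pye-1 +Fe replicate or either WT +Fe replicate). For 8 of the 10 genes the pye-1 -Fe arrays lay below the pye-1 +Fe arrays without overlap, as did 22.1% of all tested probe sets.

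The same comparison in WT gave a median of 0.66 over the 10 genes, from 0.32 (UGT74B1) to 1.34 (BCAT4), with a median of 0.00 over all tested probe sets. BCAT4, IPMI1 and CYP83A1 were past the threshold with higher signal, 3 of 10, against 0.559% of all tested probe sets (0.973% in either direction). With the replicate block the count was 5, with IPMDH and GSTU20 added, while it was 0 without WT -Fe replicate 1 or without either WT +Fe array and 1 without WT -Fe replicate 2. All 10 genes had WT -Fe arrays above the WT +Fe arrays, as did 18.8% of all tested probe sets. By step, the WT medians were 0.69 for the 5 chain-elongation genes and 0.78 for the 4 genes of core synthesis, and in pye-1 they were -0.79 and -0.45. In pye-1 the ranges of the 2 steps overlapped, from -1.15 to -0.42 and from -0.72 to 0.09. The value of 0.09 is that of UGT74B1, which the core-synthesis medians include. The comparisons between media in pye-1 and in WT share no array.

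Between genotypes without iron, the median of the 10 genes was -1.21, from -2.10 (BCAT4) to -0.06 (UGT74B1), with -0.03 over all tested probe sets. Lower signal in pye-1 passed the threshold for BCAT4, MAM3, IPMI1, IPMDH, BAT5, CYP83A1 and AT2G31790, 7 of 10, against 0.138% of all tested probe sets (0.465% in either direction). In that direction 22 probe sets passed in all. For 9 of 10 genes the pye-1 -Fe arrays lay under the WT -Fe arrays without overlap, as did 20.2% of all tested probe sets. Blocking on the replicate number gave 9 of 10, with IPMI2 and GSTU20 added, and the fit without the intensity trend gave 4. Leaving out pye-1 -Fe replicate 2 gave 4 of 10, and leaving out WT -Fe replicate 1 gave 1 of 10. This comparison shares its arrays with those between media, so their counts are not independent.

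**Figure D3:**
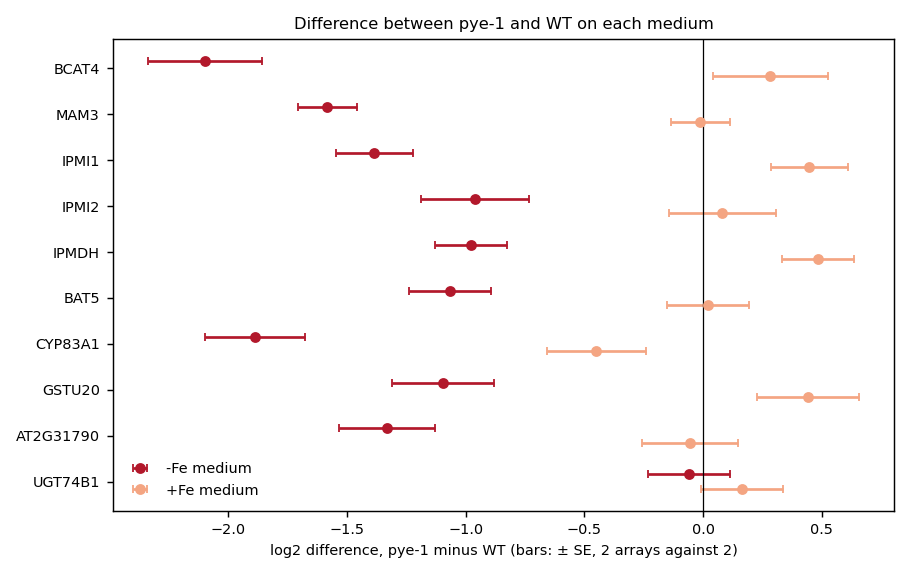
Log2 difference between pye-1 and WT (horizontal axis) for each gene on -Fe medium (dark red) and +Fe medium (light), with bars of ± 1 standard error from the fit, 2 arrays against 2. Without iron 9 genes lay between -2.10 and -0.96, and with iron all 10 lay between -0.45 and 0.48.

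With iron present, differences between genotypes were smaller and ran both ways. The median was 0.12, from -0.45 (CYP83A1) to 0.48 (IPMDH), with 0.02 over all tested probe sets. None of the 10 passed the threshold in limma, where 0.0628% of all tested probe sets did, and 2 had an unadjusted p under 0.05, as did 5.63% of all tested probe sets. The replicate block also gave 0. Intervals of 95% still allowed sizeable differences: from 0.15 to 0.82 for IPMDH, from 0.09 to 0.81 for IPMI1, from -0.25 to 0.82 for BCAT4 and from -0.91 to 0.02 for CYP83A1. In all, 6 of the 10 genes had groups that did not overlap, as did 31.7% of all tested probe sets.

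The interaction, the difference between media in pye-1 minus that in WT, had a median of -1.45 over the 10 genes, with -0.04 over all tested probe sets. It was -2.38 ± 0.34 for BCAT4, -1.83 ± 0.23 for IPMI1, -1.57 ± 0.18 for MAM3 and -1.46 ± 0.21 for IPMDH. These 4 were past the threshold, of 6 probe sets with a negative interaction past it in all (0.0377%, and 0.0879% in either direction). The replicate block gave the same 4 genes. The count was 0 without pye-1 -Fe replicate 1 or 2, WT -Fe replicate 1 or 2, or WT +Fe replicate 2. It was 1 without pye-1 +Fe replicate 1 or WT +Fe replicate 1, and 0 without the intensity trend. GSTU20 (-1.54 ± 0.30), CYP83A1 (-1.44 ± 0.30), AT2G31790 (-1.27 ± 0.28), BAT5 (-1.09 ± 0.24) and IPMI2 (-1.04 ± 0.32) lay on the same side and did not pass, and UGT74B1 had -0.22 ± 0.24.

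The complete order of groups, both WT -Fe arrays above all others and both pye-1 -Fe arrays below all others, was present in 54 of the 15922 tested probe sets (0.339%). BCAT4, MAM3, IPMI1, IPMDH, BAT5, CYP83A1 and AT2G31790 made up 7 of them, which is 70.0% of the 10 genes and 13.0% of the 54. IPMI2 and GSTU20 missed it by the order of their lowest arrays. Of the other 47, 26 had a single gene name and 21 had none in the annotation used here. This order was described after the values had been seen.

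Over the 8 arrays the log2 signals of the genes moved together. Among the 36 pairs that leave out UGT74B1, Pearson's r ran from 0.69 (IPMDH with CYP83A1) to 0.97 (IPMI1 with GSTU20), with a median of 0.86. The 9 pairs with UGT74B1 had r between -0.10 and 0.48. These values describe 8 arrays in 4 groups, and the genes share the same RNA, so each r includes the differences between groups. Against the mean of the other 9 genes, r was 0.97 for BCAT4, 0.96 for IPMI1 and BAT5, and 0.21 for UGT74B1.

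Genes outside the pathway with the most similar profile were ranked by their correlation with the mean of the 10 over the 8 arrays. The 5 named genes at the top were AT4G03100 (r = 0.96), AT2G25740 (0.95), AT1G61930 (0.94), NAI1 (0.93) and AT2G43550 (0.92). NAI1, a basic helix-loop-helix factor needed for the endoplasmic reticulum bodies of roots and seedlings, read 367 and 319.6 in pye-1 -Fe and 549.6 and 417 in pye-1 +Fe, against 589.9 and 579.9 in WT -Fe and 441 and 404 in WT +Fe. Its range over the groups was narrower than that of 9 of the 10 genes, with a log2 difference of -0.77 between pye-1 and WT without iron. AT1G61930 read 57.6 and 55.1 in pye-1 -Fe and 94.8 and 79.1 in pye-1 +Fe, against 99.6 and 110.3 in WT -Fe and 78.6 and 70.3 in WT +Fe. The 3 named genes with the most opposite profile were AT1G19530 (r = -0.97), AT1G15430 (-0.96) and AT1G33055 (-0.96). AT1G19530 and AT1G33055 are both known to be induced by low oxygen. AT1G19530 read 1033 and 1380.3 in pye-1 -Fe and 312 and 390.2 in pye-1 +Fe, against 127 and 178 in WT -Fe and 847 and 370.2 in WT +Fe. AT1G33055 read 1043 and 1071 in pye-1 -Fe and 417 and 465 in pye-1 +Fe, against 244 and 288 in WT -Fe and 475 and 408 in WT +Fe. All 3 opposite genes had pye-1 -Fe highest and WT -Fe lowest, without overlap with the other groups. Choosing them by their correlation favours that order. AT1G15430 spanned only 199 to 237 over the 8 arrays.

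**Figure D4:**
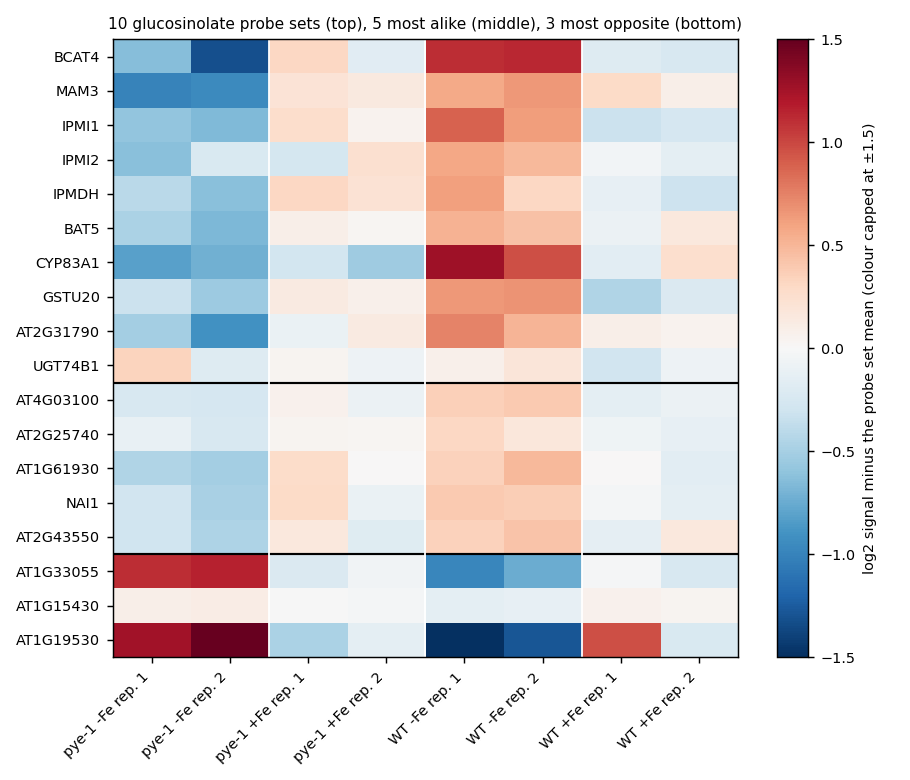
Log2 signal of each probe set minus its own mean over the 8 arrays (colour, capped at ±1.5), with arrays across and genes down. The 10 glucosinolate genes stand at the top, the 5 named genes with the most similar profile (r from 0.92 to 0.96) in the middle and the 3 with the most opposite profile (r from -0.97 to -0.96) at the bottom.

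Other genes of glucosinolate and sulfur metabolism were taken from 11 lists of 111 further loci. Only 15 of those loci had a named probe set, of which 13 were tested, and 5 lists had none, among them indole glucosinolate synthesis and nicotianamine synthesis. The MYB factors of the aliphatic branch, the other chain-elongation enzymes and the sulfotransferases are therefore not analysed here. In limma none of the 13 passed the threshold in any of the 5 comparisons. Without iron their median difference between pye-1 and WT was -0.15, from -0.77 to 0.89, and 4 of 13 had an unadjusted p under 0.05, where 6.99% of all tested probe sets did. Unadjusted p was under 0.05 for 1 of 13 between media in pye-1 (8.58% of all tested probe sets), 2 in WT (8.73%), 3 between genotypes with iron (5.63%) and 1 for the interaction (5.75%).

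The measured regulators and transporters ranged from -0.77 to 0.24 between pye-1 and WT without iron. MYC3 and MYC4, basic helix-loop-helix factors that act with MYB factors on glucosinolate genes, had differences of 0.24 and -0.29 between pye-1 and WT without iron. GTR1, a plasma membrane importer of glucosinolates, read 191 and 155 in pye-1 -Fe and 188 and 205 in pye-1 +Fe, against 328 and 264 in WT -Fe and 261 and 286 in WT +Fe. GTR1 thus lay lower in pye-1 on both media, without overlap. Its difference was -0.77 ± 0.17 on -Fe medium (limma adjusted p = 0.116, or 0.0215 under the replicate block) and -0.48 with iron (adjusted p = 0.758). The related GTR2 had -0.34 without iron (adjusted p = 0.704). PYK10, an abundant root beta-glucosidase, had 0.12.

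Genes of side-chain modification and sulfur assimilation came next. AT2G25450, the dioxygenase known as GSL-OH that hydroxylates an aliphatic side chain, read 3585 and 3247 in pye-1 -Fe and 4554 and 4193 in pye-1 +Fe, against 5106 and 4000.2 in WT -Fe and 7037 and 5143 in WT +Fe. In WT its difference between media was -0.41 (adjusted p = 0.489, or 0.0346 under the block), opposite in sign to the 10 synthesis genes, and in pye-1 the difference was -0.36 (adjusted p = 0.606). AOP1, of the same side-chain locus family as AOP2 and AOP3, had 0.14 between pye-1 and WT without iron. The sulfate assimilation genes APS3, APS4 and SIR had -0.22, 0.10 and 0.25, and AT1G04770, known as SDI2 and as a repressor of aliphatic glucosinolate synthesis in sulfur starvation, had -0.25.

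MGL, methionine gamma-lyase, which degrades methionine, read 481 and 826 in pye-1 -Fe and 404 and 668 in pye-1 +Fe, against 275 and 423 in WT -Fe and 774 and 783 in WT +Fe. Its WT -Fe arrays were below the WT +Fe arrays, with a difference of -1.19 (adjusted p = 0.132, and 8.06e-04 with the replicate block). In pye-1 the difference between media was 0.28 (adjusted p = 0.885), and the interaction was 1.47 (adjusted p = 0.651, and 0.0129 with the block). CBL, cystathionine beta-lyase of methionine synthesis, had -0.21 between media in pye-1 and -0.14 in WT.

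**Figure D5:**
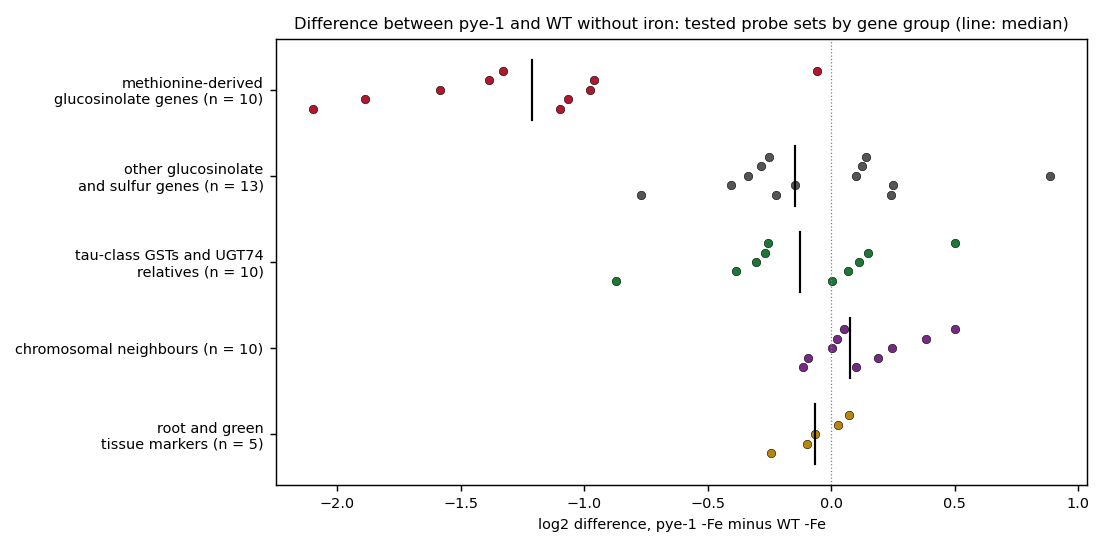
Log2 difference between pye-1 -Fe and WT -Fe (horizontal axis) of each tested probe set, by gene group (rows), with a line at each group's median. The 10 glucosinolate genes have a median of -1.21, and the 13 other glucosinolate and sulfur genes of -0.15. GSTU22 appears both among the relatives and among the chromosomal neighbours.

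Close relatives of 3 of the genes on the same array were compared, a choice made after their values were seen. Probe sets named for 10 further tau-class glutathione S-transferases were present, 8 of them above the filter. Among those 8, GSTU22 was higher without iron than with iron in pye-1 (0.72, limma adjusted p = 0.0427) and the other 7 did not pass. Under the replicate block GSTU25 passed as well (0.51, adjusted p = 0.423, or 0.0161 under the block), and it did so in WT too (0.56, adjusted p = 0.333, or 0.00903 under the block). GSTU22 read 3877 and 3509.8 in pye-1 -Fe and 2461 and 2031 in pye-1 +Fe, against 2526 and 2696 in WT -Fe and 2524 and 2061 in WT +Fe. GSTU22 and GSTU20 lie 2 genes apart in the RefSeq table, and they had opposite signs between media in pye-1, 0.72 and -0.54. Other relatives had the sign of GSTU20. Between media in pye-1, 5 of the 8 were lower without iron and 3 higher, with GSTU18 (-0.58) and GSTU26 (-0.39) among the lower. In WT 5 of the 8 were higher without iron and 3 lower, from -0.62 (GSTU16) to 0.56 (GSTU25). There 4 of the 8 had an unadjusted limma p under 0.05, where 8.73% of all tested probe sets did. None of the 8 passed in WT without the block. Between pye-1 and WT without iron, 4 of the 8 were lower and 4 higher, from -0.87 (GSTU18, adjusted p = 0.599) to 0.50 (GSTU22, adjusted p = 0.300). The rise of GSTU22 did not pass in 5 of 8 fits with an array removed, with adjusted p up to 0.318 without pye-1 +Fe replicate 2. Of the UGT74 family, UGT74D1 and UGT74F1 had -0.31 and 0.07 between pye-1 and WT without iron, against -1.33 for AT2G31790 and -0.06 for UGT74B1.

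Genes next to the 9 glucosinolate genes with a locus were also looked at, 2 on each side in the order of the RefSeq table, again after the values were seen. Of 36 neighbours, 10 had a named and tested probe set outside the 10 described here. None passed the threshold in limma between pye-1 and WT without iron, where their differences ran from -0.12 to 0.50, or for the interaction, and 1 of 10 had an unadjusted p under 0.05 in each, near the 6.99% and 5.75% of all tested probe sets. With the replicate block 1 passed between genotypes, GSTU22 (adjusted p = 0.0253), which was higher in pye-1.

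Markers of other tissues were set beside these differences. Among 7 green tissue markers, 3 had a named probe set (LHCB4.1, RCA and PSAN), and without iron they differed between pye-1 and WT by -0.24 to 0.07. Over the 3 markers and 8 arrays signals ran from 82.6 to 447, so none was at the control level. Between media they had -0.76 to -0.16 in pye-1 and -0.93 to -0.36 in WT, the same direction in both genotypes, where 9 of the 10 glucosinolate genes had opposite directions. In WT without iron PSAN fell (-0.93, adjusted p = 0.0372), as did EXPA18 among the root hair markers (-0.93, adjusted p = 0.0310). With an array left out PSAN passed in 2 of 8 fits (adjusted p up to 0.335) and EXPA18 in 5 of 8 (up to 0.293). In pye-1 the differences were -0.76 for PSAN (adjusted p = 0.103, or 0.0304 under the replicate block) and -0.58 for EXPA18 (0.261, or 0.0160 under the block). EXPA7 and EXPA18 had 0.03 and -0.07 between pye-1 and WT without iron. With iron they had -0.17 and -0.42, while LHCB4.1, RCA and PSAN had -0.45, -0.01 and -0.10. None of these markers passed with iron (limma adjusted p from 0.692 to 0.999). Any part of these tissues in the glucosinolate values was not tested.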

How the data were processed

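Whole-root RNA of 4 groups of 2 samples was hybridised to Affymetrix arrays with 1 colour. The deposited values are intensity in MAS5 units per the submitters' processing notes (no version is named there). A trimmed mean (2% off each end) is 250.02 on every array, so the authors' values had been scaled. Values were taken as log2 with no pseudocount, 64 control probe sets were left out of 22810, and of the remaining 22746 the dimmest 30% by mean signal (below 23.3 units) were dropped, for 15922 tested. Names came from the platform annotation and the RefSeq table (TAIR10.1), and 8730 (38.4%) have no name. The sources name no build for the array, so no coordinates are given, and no sequence or promoter motif was analysed here.

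Differences were fitted with limma 3.58.1 in R 4.3.3 (1 mean per group over 8 arrays, eBayes with an intensity trend, 4 residual and 6.32 prior degrees of freedom), with Benjamini-Hochberg adjustment over all tested probe sets and a threshold of 0.05. With 2 arrays on each side, the smallest p of an exact permutation test is 0.333, and that test was left out. The 10 genes, the gene lists and the tests were chosen with earlier results of these data known. Named genes were the 10, PYE, list genes past the threshold or with the 3 smallest p, and the 5 most and 3 least similar profiles. Same-numbered arrays deviated together in all 6 pairs of groups (r from 0.178 to 0.302), so the replicate number in the titles was fitted as a block in an alternative. The other alternatives were a pseudocount of 16, no filter or a 50% filter, signals raised to the control level, quantile normalization, no trend, and leaving out each array.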

Additional observations from a re-analysis of the deposited data

Results flagged for a closer look

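For 9 of the 10 glucosinolate genes the signal was lower without iron in pye-1 and higher without iron in WT, in replicate 1 and in replicate 2 alike, as it was for 8.84% of all tested probe sets. The difference between media in pye-1 minus that in WT was -2.38 for BCAT4, -1.57 for MAM3, -1.83 for IPMI1, -1.04 for IPMI2, -1.46 for IPMDH, -1.09 for BAT5, -1.44 for CYP83A1, -1.54 for GSTU20 and -1.27 for AT2G31790, on the log2 scale. These genes were chosen with the values known, so this difference was not tested on independent data. None of the tested genes from the gene lists, outside the 10, passed the interaction test in limma. AT1G19530 (3.67) and AT1G33055 (2.00) did pass it, and both had been picked for their opposite profile. Groups of 2 arrays are too small to look for single outlying arrays.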

How the results depend on the processing

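Over 15 alternatives, 712 of 745 single values of the 10 genes moved by less than the spread between replicates, and none of the summary values changed sign. Many of the 745 could not move. The block, the filters, the trend setting and leaving out an array of a group outside the comparison do not change a gene's log2 difference. The count is therefore no measure of stability. The median over the 10 genes between media in pye-1 was -0.58 with a pseudocount of 16 and -0.62 after quantile normalization. Between genotypes without iron it was -1.05 with the pseudocount and -1.33 with the 50% filter, which leaves out GSTU20, and the interaction was -1.26 with the pseudocount. Leaving out each array in turn gave medians from -0.78 to -0.58 between media in pye-1, from 0.56 to 0.76 in WT, from 0.085 to 0.20 between genotypes with iron, from -1.31 to -1.15 without iron and from -1.54 to -1.30 for the interaction.

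With the replicate number as a block, 4 of the 10 genes passed between media in pye-1, 5 in WT, 9 between genotypes without iron and 4 for the interaction. Under that block 2 other glucosinolate and sulfur genes passed in WT (AT2G25450 and MGL), 2 between genotypes without iron (GTR1 and MGL) and 1 for the interaction (MGL). Over all tested probe sets the block gave 422 between media in pye-1 against 167 without it, 485 against 155 in WT, 55 against 10 between genotypes with iron, 273 against 74 without iron and 56 against 14 for the interaction. The cause was not tested.

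Without the intensity trend the counts among the 10 genes were 1 between media in pye-1, 4 between genotypes without iron and 0 for the interaction, and over all tested probe sets they were 99 in pye-1, 90 in WT, 26 between genotypes without iron and 0 for the interaction. With no filter 1 of the 10 passed between media in WT. For the interaction 2 of the 10 passed with no filter, 2 with the 50% filter and 2 after quantile normalization, and 8 of all probe sets with no filter and 8 with the 50% filter. With the 50% filter 5 of all probe sets passed between genotypes with iron.

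With an array left out, the lone array of its group is assumed to vary like the other groups. Counts among the 10 genes then ran from 1 to 2 between media in pye-1, from 0 to 3 in WT, from 1 to 7 between genotypes without iron and from 0 to 3 for the interaction. Over all probe sets they ran from 87 to 154, from 83 to 173, from 5 to 17 between genotypes with iron, from 20 to 88 without iron and from 0 to 10 for the interaction. With 2 arrays in a group, the number of arrays limits the precision, and the lowest signal of the 10 genes, 47.9, lay above the control level of every array.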
